A study of Mus musculus with 4 samples.

Results

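*Stab2* and *Nt5dc3* are neighbours on mouse chromosome 10, and both were followed here across liver cells other than endothelium. They were picked by symbol from the 33696 genes of the count matrices, so the members are 2 genes, and both were found once in each matrix. They were picked because their levels in these same cells had been seen, so their levels below are a description and carry no test. Cells were assigned by marker counts to endothelial cells, Trgv6 γδ T cells, other γδ T cells, αβ T cells, innate lymphoid cells (ILCs), natural killer (NK) cells, macrophages and B cells. *Kdr* and *Clec4g*, a growth factor receptor and a lectin of liver endothelium, were kept out of these gates and served as the check for endothelial RNA.

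The cells came from the liver of mice aged 2 months that carried *Stab2-CrexERT2*, a tamoxifen-dependent Cre at the 3′ end of the *Stab2* gene, together with *R26-LSL-tdT*, a reporter that turns red once Cre has acted. Tamoxifen was given at embryonic day 9.5, and genotype, induction and tissue were shared by both groups. CD45+ cells that were tdTomato+ made up the first group, and CD45+ cells sorted as tdTomato− controls made up the second. The labels give the genotype only as S2 and the treatment as none, and they do not say how many mice were pooled. The label of the control library names CD45 only, and its tdTomato− sort is taken from the protocol text. Each group is 1 gene expression library with 1 matched receptor library, and the tdTomato+ library is batch 1 while the tdTomato− library is batch 2, so sort and batch cannot be told apart. With 1 library a group, no difference has a replicate check, and all intervals cover counting error only. The inserted Cre and tdTomato transcripts were not analysed here.

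*Stab2* encodes stabilin-2, a large scavenger receptor that binds hyaluronan and other ligands at the cell surface and carries them into the cell for degradation. It is best known from the sinusoidal endothelium of liver, spleen and lymph node, where it clears hyaluronan from blood and lymph. *Nt5dc3* encodes a member of the 5′-nucleotidase domain family whose substrates are poorly known. Cre in these mice is driven from the *Stab2* locus.

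In the GENCODE M21 annotation of GRCm38, *Nt5dc3* (ENSMUSG00000054027) lies on the plus strand at chr10:86779005-86838389 and *Stab2* (ENSMUSG00000035459) on the minus strand at chr10:86841198-87008025. Their 3′ ends face each other across 2808 bases. The genes are therefore convergent neighbours with separate start sites, and the Cre was placed in the end of *Stab2* that faces *Nt5dc3*. The RefSeq windows of 250 bases before to 50 bases after each start were searched on both strands for TATATA, for the core of the PU.1 motif, written GAGGAA, and for the letters AGATAA bound by GATA factors. A match to TATATA was found 1 time for *Stab2* and 0 times for *Nt5dc3*, with 5.67% of 32851 promoter windows holding it. GAGGAA was found 0 times for *Stab2* and 1 time for *Nt5dc3*, with 28.3% of windows holding it. AGATAA was found 0 times in either window and is held by 11.2% of windows. The bases around these 2 matches are shown 5′ to 3′ in GRCm38.p6, with the match in capitals, as an example of how the windows of the neighbours differ. The *Stab2* stretch lies on the minus strand at chr10:87008035-87008064 and the *Nt5dc3* stretch on the plus strand at chr10:86778844-86778873.

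*Stab2* stretch, minus strand: tcagccaggactTATATAcagctcagagtt

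*Nt5dc3* PU.1 core, reverse strand: tcagccggggcaTTCCTCtttccaaccagg

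These matches are letters in a window and not shown sites, and no match says only that the letters are not in these windows.

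The tdTomato+ matrix held 17957 barcodes with 203366009 unique molecular identifiers (UMIs), and the tdTomato− matrix held 18444 barcodes with 156771260 UMIs. The median was 8955 UMIs per barcode in the former and 7128 in the latter, and the matrices share 84 barcode sequences. After the filter on genes and mitochondrial counts, 17509 and 18173 cells were left, of which 66.2% and 51.6% met a gate, and 0 cells met 2 gates. Although the sort was on CD45, 39.7% of kept tdTomato+ cells had no count of its gene *Ptprc*, against 2.63% of tdTomato− cells. The endothelial gate, which allows at most 1 *Ptprc* UMI, took 6568 tdTomato+ and 21 tdTomato− cells, so the label of immune cells does not hold for this class. Most defining genes of the named classes were counted in both libraries, at unlike shares. Among cells without *Kdr* or *Clec4g*, *Trdv4*, *Il17a* and *Blk* were counted in 96.9%, 78.1% and 93.8% of tdTomato+ and in 91.0%, 48.6% and 78.7% of tdTomato− Trgv6 γδ T cells, while *Scart2* was at 0% and 0.82%. *Clec4f* was counted in 93.5% of tdTomato+ macrophages, and *Eomes* in only 27.9% of tdTomato+ NK cells. The ILC gate was less alike, with *Il1rl1*, the IL-33 receptor of group 2 ILCs, in 82.1% of 67 tdTomato+ cells and in 11.1% of 9 tdTomato− cells, and with *Il13* and *Il5* in none of the latter.

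*Stab2* was high in endothelium, and in the tdTomato+ library it was counted in every other class as well. Levels are given as CPM, the UMIs of a gene scaled to the same total in every class. The tdTomato+ endothelial cells gave 3435 CPM, with an exact 95% Poisson interval of 3419 to 3452. The 21 tdTomato− endothelial cells gave 1679 CPM, with an interval of 1470 to 1908. A *Stab2* UMI was seen in 91.7% of the former and 57.1% of the latter. Over all gated tdTomato+ cells, *Stab2* then ran from 1397 CPM in other γδ T cells and 1303 CPM in αβ T cells to 195 CPM in B cells. The same classes in the tdTomato− library gave 13.3, 7.97 and 0.618 CPM. Endothelial RNA in the same droplets moved with these whole-class values. *Kdr* reached 531 CPM in tdTomato+ αβ T cells against 3.15 CPM in tdTomato− ones, and the 12 genes of an endothelial panel reached 7271 against 89.3 CPM. Of the 3136 tdTomato+ αβ T cells, the 2055 with 4 or more panel UMIs held 70211 of the class's 70460 *Stab2* counts.

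RNA from 1 source keeps its genes in 1 ratio, which gives a scale for *Stab2* beyond the endothelial RNA of a class. *Stab2* counts were divided by panel counts and compared with the ratio of 0.159 in tdTomato+ endothelial cells. In whole classes of the tdTomato+ library this gave 0.924 in B cells, with an exact interval of 0.845 to 1.01, and 0.981 in NK cells, with an interval of 0.937 to 1.03. Other γδ T cells reached 1.09 and αβ T cells 1.12. The ratio was higher in Trgv6 γδ T cells, at 1.41 with an interval of 1.26 to 1.58, and highest in ILCs, at 2.73 with an interval of 2.48 to 2.99. With *Clec4g* alone as reference the Trgv6 value was 1.15, with an interval of 0.999 to 1.32, so the whole-class excess of these cells depended on the reference gene. Macrophages reached 1.44, but *Cdh5*, a gene of the panel, made up 86.7% of the panel counts in tdTomato+ macrophages without *Kdr* or *Clec4g* and 75.9% in tdTomato− ones. The panel was therefore not used as a reference for macrophages.

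**Figure D1:**
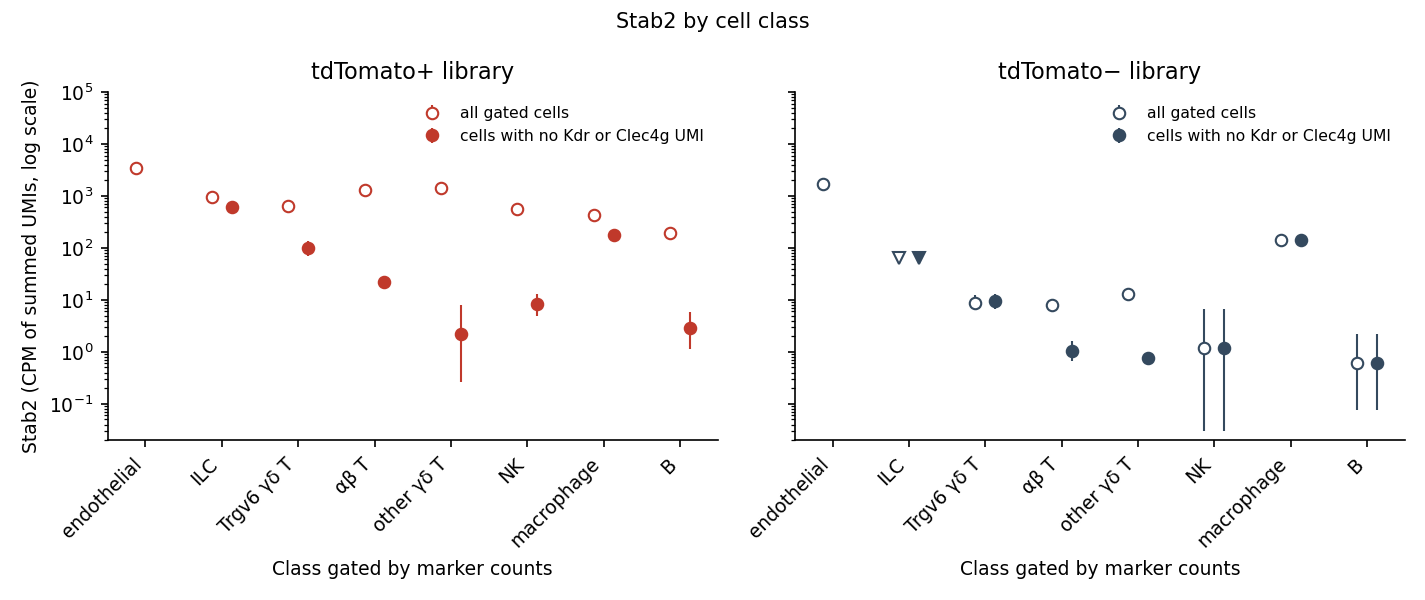
*Stab2* level (y axis, CPM of summed UMIs on a log scale) by gated class (x axis) in the tdTomato+ and tdTomato− libraries. Open points are all gated cells, filled points are cells with no *Kdr* or *Clec4g* UMI, bars are exact 95% Poisson intervals and triangles mark the upper limit where the count was 0. Among filled points, ILCs, macrophages and Trgv6 γδ T cells reach 620, 174 and 99.7 CPM where tdTomato+, and B cells 2.88 CPM.

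The cells that carried neither a *Kdr* nor a *Clec4g* UMI were therefore described on their own, and all values from here on refer to them unless endothelium is named. In this set the summed *Stab2* level fell among the tdTomato+ classes from ILCs through macrophages, Trgv6 γδ T cells and αβ T cells to NK, B and other γδ T cells. It stood at 620 CPM in ILCs, 174 CPM in macrophages, 99.7 CPM in Trgv6 γδ T cells and 21.9 CPM in αβ T cells. NK cells gave 8.30, B cells 2.88 and other γδ T cells 2.19 CPM. The intervals of the first 5 classes in this order do not overlap each other, while those of NK, B and other γδ T cells overlap their neighbours. These intervals take each UMI as independent, although some cells held many *Stab2* UMIs, so they do not cover the spread between cells. The tdTomato− order differed in that macrophages led at 141 CPM, followed by Trgv6 γδ T cells at 9.41 CPM, NK cells at 1.20, αβ T cells at 1.05, other γδ T cells at 0.759 and B cells at 0.621 CPM. The interval of macrophages was clear of all these classes. That of Trgv6 γδ T cells, 6.66 to 12.9, was clear of αβ, other γδ T and B cells but touched that of NK cells, which rests on 1 count. The 9 tdTomato− ILCs had 0 counts.

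B cells, which are not known to express *Stab2*, give the level to read the other shares against. A *Stab2* UMI was seen in 6 of 258 tdTomato+ B cells (2.33%, exact interval 0.858 to 4.99%, median depth 6343 UMIs) and in 2 of 369 tdTomato− B cells (0.542%, median depth 5893 UMIs). No B cell held more than 2 *Stab2* UMIs. In tdTomato+ NK cells the count of 18 was close to the 21.2 that their panel counts predict from endothelial RNA, a ratio of 0.849 with an interval of 0.488 to 1.39. The ratio was 0.448 in B cells (interval 0.175 to 0.958) and 0.206 in other γδ T cells (interval 0.0244 to 0.775). None of these 3 classes was above the prediction of the panel as it stands. *Calcrl*, a panel gene, was at 18.0, 14.4 and 16.4 CPM in tdTomato+ NK, B and other γδ T cells. In the tdTomato− ones, which held less endothelial RNA, it was at 27.6, 10.55 and 11.7 CPM. How far *Calcrl* moves these and the later ratios to the panel was not tested.

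**Figure D2:**
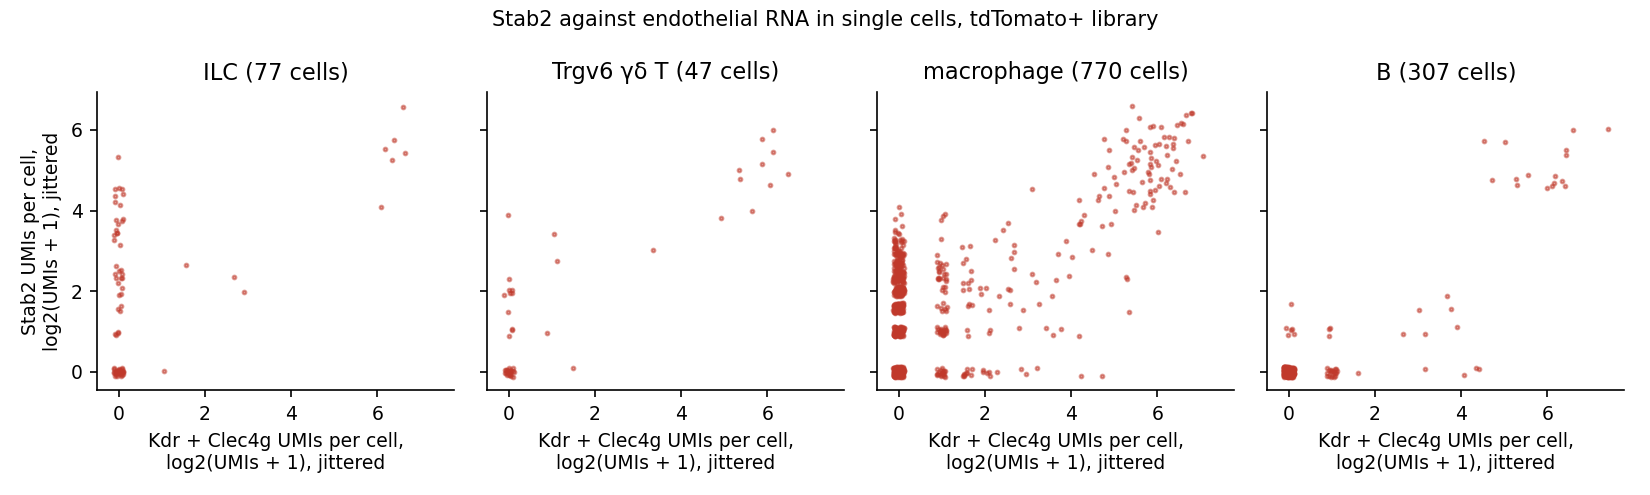
Each point is 1 cell of the tdTomato+ library, with *Kdr* plus *Clec4g* UMIs on the x axis and *Stab2* UMIs on the y axis, both as log2(UMIs + 1) with jitter. ILCs with up to 37 *Stab2* UMIs stand at 0 on the x axis, macrophages and Trgv6 γδ T cells there reach 15 and 14 UMIs, and B cells there reach 2.

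ILCs, lymphocytes without antigen receptors that release cytokines in tissues, had the highest *Stab2* CPM among the tdTomato+ immune cells without *Kdr* or *Clec4g*, while macrophages had the higher share of cells with a UMI (398 of 539, 73.8%). *Stab2* was counted in 37 of 67 tdTomato+ ILCs (55.2%, interval 42.6 to 67.4%) at a median depth of 7278 UMIs. With each cell thinned to 3000 UMIs, 30 of 65 cells (46.2%) still had a *Stab2* UMI, against 3 of 248 B cells (1.21%). The counts were not spread evenly, as 30 cells held 3 or more and 1 cell held 37. The 343 counts compare with 10.0 predicted from the panel, a ratio of 34.1 with an interval of 26.0 to 45.4. In the 30 tdTomato+ ILCs with no UMI of any panel gene the level was 505 CPM, with an interval of 417 to 605. Other sinusoidal genes were low over all 67 tdTomato+ ILCs, with *Stab1* and *Mrc1* at 7.23 CPM each and *Lyve1* and *Fcgr2b* at 5.42 CPM each. The filter on *Kdr* and *Clec4g* itself selects cells with little endothelial RNA. Under it, tdTomato+ αβ T cells had these 4 genes at 3.96, 6.20, 2.25 and 9.62 CPM. The 9 tdTomato− ILCs had 0 *Stab2* counts, which allows a share of up to 33.3% (3 counts of the total), and the exact interval reaches 33.6%. The exact interval of the library ratio starts at 9.54 and has no upper end. These groups are unlike in *Il1rl1*, and among cells without it, 12 tdTomato+ ILCs gave 339 CPM against 0 counts in 8 tdTomato− ones, a ratio whose interval starts at 4.60. With *Il1rl1* there was 1 tdTomato− ILC, and the interval starts at 0.773 and so includes 1.

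Within tdTomato+ ILCs, *Stab2* went with *Icos* and was less common with *Klrg1*. Cells with *Icos*, a costimulatory receptor, held *Stab2* in 33 of 46 cases (71.7%), and cells without it in 4 of 21 (19.0%). Cells with *Klrg1*, a receptor of mature group 2 ILCs and effector lymphocytes, held it in 16 of 40 cases (40.0%), and cells without it in 21 of 27 (77.8%). *Il1rl1* made less difference, with 32 of 55 cells (58.2%) against 5 of 12 (41.7%). *Arg1*, *Il13* and *Il5* gave 11 of 26 cells with the gene and 26 of 41 without it, 8 of 15 and 29 of 52, and 10 of 20 and 27 of 47. Median depths within each of these pairs lay between 6245 and 8201 UMIs, and no such split was tested.

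Trgv6 γδ T cells, an invariant IL-17 producing population laid down early in life, held *Stab2* in both libraries. It was counted in 11 of 32 tdTomato+ cells (34.4%, interval 18.6 to 53.2%) and in 13 of 366 tdTomato− cells (3.55%, interval 1.90 to 5.997%). Both classes summed to 38 counts, which is 99.7 CPM in the tdTomato+ library (interval 70.6 to 137) and 9.41 CPM in the tdTomato− library (interval 6.66 to 12.9). The ratio of tdTomato+ to tdTomato− was 10.6, with an exact conditional interval of 6.58 to 17.1. Median depths were 11079 and 9154 UMIs, and after thinning to 3000 UMIs the shares were 15.6% of 32 cells and 2.47% of 365. The tdTomato+ count exceeded the panel's prediction 11.3-fold (interval 6.49 to 20.4), and the tdTomato− count 3.31-fold (interval 2.17 to 4.97). In the 20 of these tdTomato+ cells with no panel UMI the level was 95.2 CPM (interval 61.0 to 142).

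Trgv6 γδ T cells were many in the tdTomato− library, where each cell with *Stab2* also counted *Blk*. Of the 288 cells with a UMI of *Blk*, a kinase gene of these cells, 13 had *Stab2* (4.51%, interval 2.43 to 7.60%), and of the 78 without it 0 had it. The exact interval of the latter reaches 4.62%, so a difference in share between the sides was not detectable at this number of cells. *Maf*, *Scart1* and *Il1r1* split the class the same way, with all 13 *Stab2* cells on the side that counted the gene. *Scart1* encodes a scavenger receptor cysteine-rich protein of IL-17 producing γδ T cells. *Il23r* left 1 of the 13 on the other side, *Zbtb16* 3, *Sox13* 5, *Il17a* 6 and *Ccr6* 8. Nearly all tdTomato+ Trgv6 cells counted *Blk* (30 of 32), so the split could not be read there.

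Receptor contigs picked Trgv6 cells without use of the *Trgv6* count. Of the tdTomato− cells, 82 had a productive TRGV6 contig, and 4 of them had *Stab2* (4.88%), at 8.02 CPM. This is near the 9.41 CPM of the gated class, with which the contig set shares 60 cells. Among cells with other γ chains, *Stab2* was seen in 4 of 628 cells with TRGV1 (0.637%) and 7 of 855 with TRGV4 (0.819%). It was seen in 3 of 283 cells with TRGV2 (1.06%), 2 of 135 with TRGV7 (1.48%) and 0 of 105 with TRGV5. The latter allows a share of up to 2.86% (3 counts of the total). These shares carry no interval, and whether they differ from that of TRGV6 was not tested. Only 2 tdTomato+ cells had a TRGV6 contig and 0 of them had *Stab2*. Of 10 tdTomato+ cells with a TRGV1 contig 3 had *Stab2*, with 29 counts in all (253 CPM), and 0 of the 10 were in the Trgv6 gate. The gated tdTomato+ other γδ T cells held only 2 *Stab2* counts (2.19 CPM), so most of the 29 lie outside that class. With TRGV2 and TRGV4 contigs, 1 of 13 and 0 of 16 tdTomato+ cells had *Stab2*.

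αβ T cells were intermediate as a class, and *Stab2* had a higher share and level in the few of them that counted *Blk* or *Il1r1*. Most cells with *Stab2* did not count *Blk*, and most did not count *Il1r1*. A *Stab2* UMI was seen in 98 of 968 tdTomato+ αβ T cells (10.1%), at a median depth of 9386 UMIs. The 244 counts were 1.98 times the number predicted from the panel, with an interval of 1.71 to 2.29. The 33 cells with *Blk* held *Stab2* in 23 cases (69.7%) at 233 CPM, and the 935 cells without it in 75 cases (8.02%) at 10.8 CPM. Median depth was 13465 UMIs in the former and 9241 in the latter. The 52 cells with *Il1r1*, the receptor gene for IL-1, held *Stab2* in 29 cases (55.8%) at 207 CPM. The 916 others held *Stab2* in 69 cases (7.53%) at 8.12 CPM. Endothelial cells also counted *Il1r1*, at 259 CPM in the tdTomato+ and 230 CPM in the tdTomato− library. All gated αβ T cells had it at 84.4 and 4.55 CPM, and those without *Kdr* or *Clec4g* at 29.6 and 4.32 CPM. The part of endothelial RNA in the *Il1r1* split was not tested. *Il23r* and *Il17a* split the class in the same direction, with *Stab2* in 53.5% of 43 cells and 35.7% of 14 cells that counted the gene. *Zbtb16*, a factor of innate-like T cells, gave 19.3% of 223 cells with it and 7.38% of 745 without it. *Trgc1*, a constant gene of the γ chain, gave 22.2% of 72 cells with it (98.0 CPM) and 9.15% of 896 without it (14.4 CPM). The tdTomato− αβ T cells held less, with *Stab2* in 2 of 27 *Blk* cells (12.4 CPM) and in 17 of 1726 others (0.868 CPM). The ratio of tdTomato+ to tdTomato− was 20.8 over all αβ T cells, with an interval of 13.3 to 34.2.

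**Figure D3:**
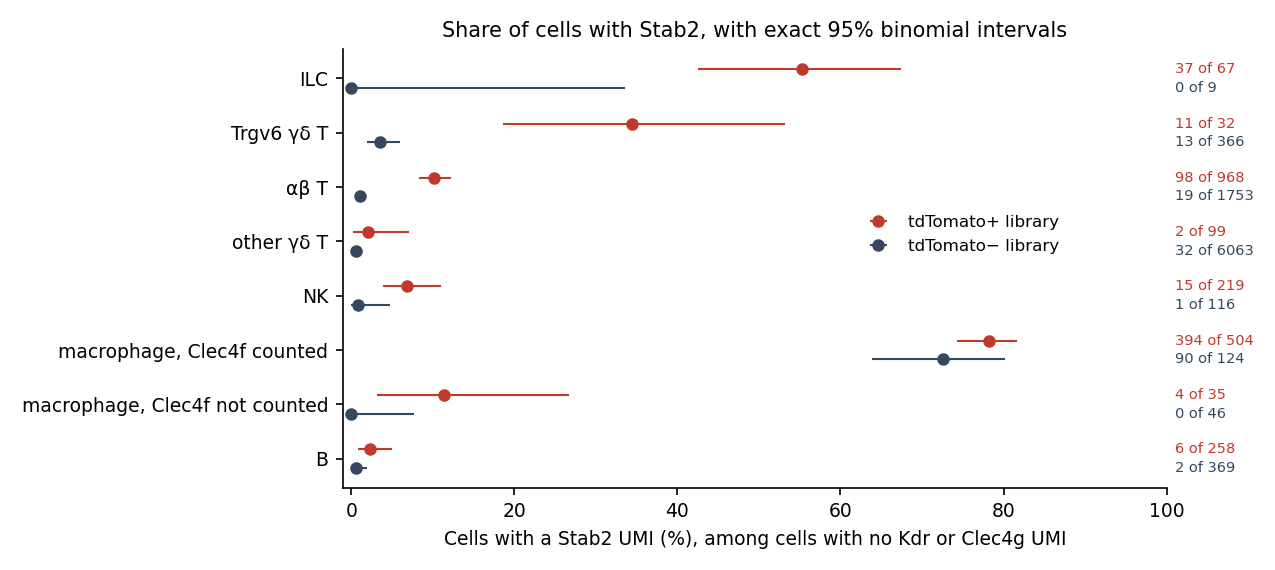
Share of cells with a *Stab2* UMI (x axis, percent) among cells with no *Kdr* or *Clec4g* UMI, by class, with macrophages divided by detection of *Clec4f* (y axis), in the tdTomato+ (red) and tdTomato− (dark) libraries. Points are shares, bars exact 95% binomial intervals and the numbers at the right are cells with *Stab2* of all cells. tdTomato+ ILCs, Trgv6 γδ T cells and αβ T cells lie at 55.2%, 34.4% and 10.1%, and B cells at 2.33%.

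Macrophages with Kupffer cell genes held *Stab2* at nearly the same level in both libraries. *Clec4f*, a lectin gene particular to Kupffer cells, the resident macrophages of liver sinusoids, was counted in 504 of 539 tdTomato+ and 124 of 170 tdTomato− macrophages. With *Clec4f*, tdTomato+ macrophages gave 190 CPM of *Stab2* (interval 179.5 to 200.3) and tdTomato− ones 197 CPM (interval 175 to 220), a ratio of 0.965 with an interval of 0.849 to 1.10. The shares were 78.2% and 72.6%. Without *Clec4f*, *Stab2* was counted in 4 of 35 tdTomato+ cells, at 6.25 CPM, and in 0 of 46 tdTomato− cells, with an exact interval that reaches 7.71%. The ratio over all macrophages, 1.24 (interval 1.09 to 1.41), was thus higher than that within *Clec4f* cells, and *Clec4f* cells were the larger share of tdTomato+ macrophages.

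Counts of *Kdr* and *Clec4g* were few in the tdTomato− macrophages, while some panel genes were counted there. The whole class of 174 cells held 298 *Stab2* counts against 3 *Kdr* and 1 *Clec4g* counts, where the endothelial ratio to *Kdr* predicts 6.66 *Stab2* counts. Of the 12 panel genes in tdTomato− macrophages without *Kdr* or *Clec4g*, *Cdh5* had 528 counts, *Igfbp7* 113 and *Calcrl* 39, and the other 9 had between 0 and 5. *Igfbp7* stood at 54.1 CPM there against 9.56 CPM in tdTomato+ macrophages. The part of endothelial RNA in the *Stab2* of macrophages was not tested.

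*Timd4*, *Vsig4* and *Cd5l*, which are genes of resident liver macrophages, split the tdTomato− class like *Clec4f*, with *Stab2* in 66.9%, 72.1% and 69.8% of cells with the gene and in 7.5%, 4.17% and 0% of cells without it. *Marco*, a scavenger receptor gene, split it less, with 78.9% of 57 cells against 39.8% of 113. In tdTomato+ macrophages *Stab2* was in 32.6% of 43 cells without *Timd4*, 21.1% of 57 without *Vsig4* and 65.0% of 280 without *Marco*. *Stab2* was also lower in cells with no panel UMI, where 56 tdTomato+ macrophages gave 48.6 CPM and 47 tdTomato− ones 44.0 CPM, a filter that removes cells with *Cdh5*. Among those with *Clec4f*, 35 tdTomato+ cells gave 121 CPM (interval 76.7 to 181) and 13 tdTomato− cells 201 CPM (interval 124 to 307), a ratio of 0.603 with an interval of 0.319 to 1.14.

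Set against αβ T cells of the same library over all genes, 1 of the 2 members was at least 4-fold higher in tdTomato+ ILCs, where 4.7% of 9077 genes were higher and 3.86% lower. The same held in Trgv6 γδ T cells, with 4.89% of 9105 genes higher and 4.03% lower, and in macrophages, with 15.0% of 9884 genes higher and 8.08% lower. The member was *Stab2* each time, at log2 ratios of 4.82, 2.20 and 2.99, and *Nt5dc3* was not past 4-fold at −0.16, 0.54 and 0.88. *Stab2* was at least 4-fold lower than in αβ T cells in other γδ T cells, where 0.909% of 8690 genes were, and in B cells, where 6.84% of 8967 genes were. In tdTomato− macrophages the log2 ratio of *Stab2* was 7.03, with 15.1% of 9931 genes at least 4-fold higher. The class comparison is the one by which the members were picked, so nothing is read from these counts.

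Between the libraries, *Stab2* was at least 4-fold higher in tdTomato+ than in tdTomato− Trgv6 γδ T cells, where 1.06% of 8943 genes were. In αβ T cells it was also past 4-fold, where 0.059% of 8475 genes, or 5 genes, were. In macrophages 0 of the 2 members were past 4-fold, where 0.184% of 9246 genes were higher and 0.476% lower. Whether the library ratio of *Stab2* differs between classes was not tested.

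Other endothelial genes were measured on the same scale. The set was genes at 50 CPM or more in tdTomato+ endothelium and at least 20-fold lower in other tdTomato+ cells with no panel UMI. Those other cells were αβ T cells, B cells and macrophages. *Stab2* stood at 48.6 CPM in tdTomato+ macrophages with no panel, *Kdr* or *Clec4g* UMI. At the 174 CPM of all those without *Kdr* or *Clec4g* it would have missed the 20-fold limit. Of these 335 genes, 23 (6.87%) stood at least 4-fold over the panel's prediction in tdTomato+ ILCs, and *Stab2* was one of them. *Epas1*, *Bmp2* and *Galnt18* were among the others. Over whole-class ILCs 4 of 337 (1.19%) did, and *Stab2* was not one of them. In tdTomato+ Trgv6 γδ T cells 13 of 335 (3.88%) did, with *Stab2*, *Nrp1*, *Npl* and *Epas1* among them. NK cells had 29 such genes (8.66%) and tdTomato− Trgv6 γδ T cells 56 (16.7%), and *Stab2* was not among these. The panel's prediction in tdTomato− Trgv6 γδ T cells rests largely on *Calcrl*, at 9.65 CPM, as no other panel gene there was over 1.98 CPM. Whether *Stab2* would pass 4-fold with *Calcrl* left out of the panel was not tested. Genes with under 10 counts in the class were not called.

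Of the scavenger receptor list of 24 genes, 6 were at 10 CPM or more in tdTomato+ ILCs or αβ T cells. Among these *Stab2* was the only one at least 4-fold higher in ILCs, and *Cd5*, *Cd6* and *Cd68* were lower. Of all measured genes 4.7% were higher and 3.86% lower. The median log2 ratio of the 6 was −2.01, against 0.08 over all genes. In Trgv6 γδ T cells 7 were measured, *Stab2* and *Scart1* were higher and *Cd5* and *Cd6* lower, with a median of −0.22 against 0.09. Here 4.89% of all measured genes were higher and 4.03% lower. In tdTomato+ macrophages 12 of 16 were higher, where 15.0% of all measured genes were higher and 8.08% lower. Among the 12 were *Stab1* at 50.6, *Mrc1* at 926, *Msr1* at 445 and *Marco* at 295 CPM. The median of the 16 was 5.13 against 0.01. *Lyve1*, another hyaluronan receptor of sinusoidal endothelium, differed between the libraries, with 1.59 CPM in macrophages sorted as tdTomato+ against 76.5 CPM. *Stab2* belongs to the list, and its choice by these values makes it no independent member.

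Of the 12 hyaluronan genes, 6 were measured in tdTomato+ ILCs and 2 were at least 4-fold higher than in αβ T cells, *Stab2* and *Tlr4*, where 4.7% of all measured genes were. *Tlr4* stood at 12.7 CPM, near the limit of 10 CPM, and *Stab2* was chosen by these values. In Trgv6 γδ T cells 5 were measured and 2 were higher, *Stab2* and *Cd44*, where 4.89% of all measured genes were. *Cd44*, the main hyaluronan receptor of leukocytes, had 606 CPM in Trgv6 γδ T cells of the tdTomato+ library against 143 in αβ T cells, and 477 against 126 CPM in the other library. The synthases *Has1* and *Has2* had 0 counts in each of these classes. The medians were 1.35 in ILCs and 1.81 in Trgv6 γδ T cells, against 0.08 and 0.09 over all genes.

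Of the 10 nearest protein-coding genes, 5 on each side, Gm49358 was not used here. Of the other 9, 2 reached 10 CPM in tdTomato+ ILCs or αβ T cells. Of these, 1 was at least 4-fold higher in ILCs, where 4.7% of all measured genes were. That gene was 1700113H08Rik, which starts 50019 bases beyond the *Stab2* start on the opposite strand. It was named by the rule for neighbours, and its values per cell were computed after its level had been seen. It stood at 90.4 CPM in tdTomato+ ILCs (interval 67.1 to 119), 15.7 CPM in tdTomato+ Trgv6 γδ T cells (interval 5.78 to 34.3) and 0.539 CPM in αβ T cells. In macrophages it was at 0.664 CPM and in endothelial cells at 1.17 CPM, so the classes with *Stab2* did not all have it. Among tdTomato+ ILCs it was counted in 20 of 37 cells with *Stab2* (54.1%) and in 5 of 30 cells without it (16.7%). Median depths were 7924 and 6787 UMIs, and this split was not thinned. In tdTomato+ Trgv6 γδ T cells 1700113H08Rik was counted in 2 of 11 cells with *Stab2* and in 3 of 21 without *Stab2*. The same split of αβ T cells gave 3 of 98 and 1 of 870. In the tdTomato− library it had 4 counts in Trgv6 γδ T cells (0.990 CPM), none of them in a *Stab2* cell. *Igf1* was high in macrophages at 708 and 425 CPM, and *Timp3*, at 993 CPM in endothelium, was at 1.81 CPM in tdTomato+ ILCs.

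**Figure D4:**
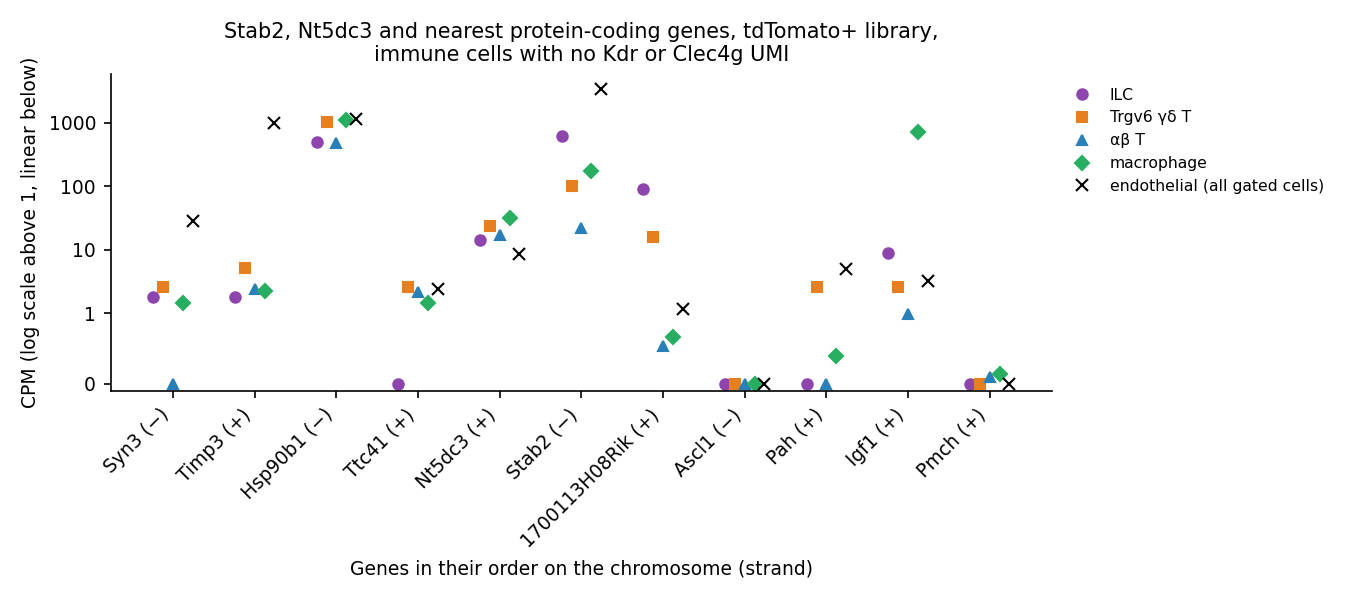
CPM (y axis, log scale above 1 and linear below) of *Stab2*, *Nt5dc3* and the nearest protein-coding genes in their order on the chromosome with their strand (x axis), in the tdTomato+ library. Immune classes are cells with no *Kdr* or *Clec4g* UMI, and endothelial cells are all gated ones. *Stab2* and 1700113H08Rik are both raised in ILCs (620 and 90.4 CPM), and *Nt5dc3* lies between 14.5 and 31.5 CPM in the 4 immune classes drawn.

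*Nt5dc3* behaved otherwise. It was counted in all classes, at levels that varied far less than those of *Stab2*. The tdTomato+ endothelial cells, highest for *Stab2*, were lowest for *Nt5dc3* at 8.62 CPM (interval 7.82 to 9.47), an interval that overlaps that of B cells. The 21 tdTomato− endothelial cells gave 28.7 CPM from 4 counts. In tdTomato+ classes it ran from 11.1 CPM in B cells through 14.5 in ILCs, 15.3 in other γδ T cells, 17.1 in αβ T cells, 18.4 in NK cells and 23.6 in Trgv6 γδ T cells to 31.5 in macrophages. The interval of macrophages, 27.6 to 35.7, is clear of those of αβ, other γδ T, NK and B cells and overlaps those of ILCs and Trgv6 γδ T cells, and all neighbours in this order overlap. Among tdTomato− classes of over 100 cells it ran from 13.04 CPM in other γδ T cells to 44.97 in macrophages, and the 9 ILCs gave 52.6 CPM from 3 counts in 1 cell.

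In every lymphoid class the interval of the library ratio of *Nt5dc3* includes 1. The ratio of tdTomato+ to tdTomato− was 1.54 in Trgv6 γδ T cells (interval 0.673 to 3.12), 1.14 in αβ T cells (interval 0.947 to 1.37) and 0.663 in B cells (interval 0.402 to 1.07). In macrophages it was 0.700, with an interval of 0.549 to 0.899. With cells above 20000 UMIs left out, the macrophage ratio was 0.940, with an interval of 0.693 to 1.29. Macrophages with *Clec4f* had 33.2 and 55.5 CPM in the tdTomato+ and tdTomato− libraries, and those without it 12.5 and 18.5 CPM.

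**Figure D5:**
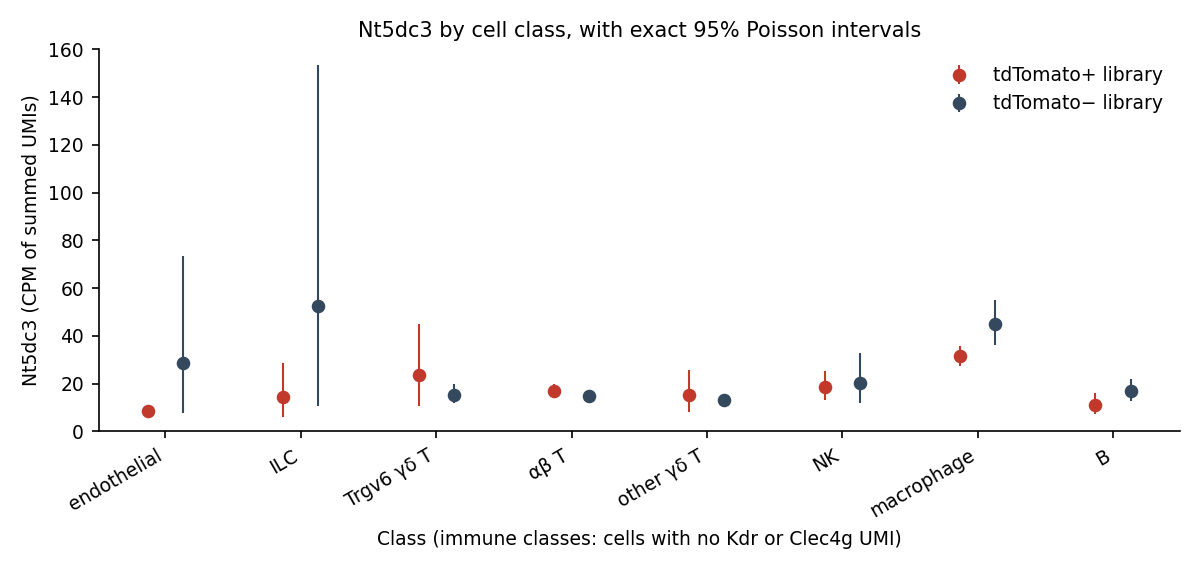
*Nt5dc3* level (y axis, CPM of summed UMIs) by class (x axis) in the tdTomato+ (red) and tdTomato− (dark) libraries, with exact 95% Poisson intervals. Immune classes are cells with no *Kdr* or *Clec4g* UMI. Macrophages stand at 31.5 and 44.97 CPM, tdTomato+ endothelial cells at 8.62 CPM, and the widest bar is the 9 tdTomato− ILCs.

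Within macrophages, *Nt5dc3* was counted more often in cells with *Stab2*. In tdTomato+ macrophages it was counted in 133 of 398 cells with *Stab2* (33.4%) and in 24 of 141 without it (17.02%), and in tdTomato− ones in 33 of 90 (36.7%) and 14 of 80 (17.5%). Cells with *Stab2* were deeper, with medians of 13346 against 8347 and 11798 against 9147 UMIs. Thinned to 3000 UMIs, the shares were 13.9% against 8.39% and 19.0% against 8.62%. The level over all UMIs was 35.0 against 17.9 CPM in the tdTomato+ and 58.3 against 26.98 CPM in the tdTomato− library. Both genes were also higher in cells with *Clec4f*, and the part of that split in this pairing was not tested. In tdTomato+ αβ T cells the shares were 17.3% of 98 and 14.3% of 870, and in Trgv6 γδ T cells 2 of 11 and 5 of 21. In ILCs *Nt5dc3* was in 4 of 37 cells with *Stab2* and in 0 of 30 without it.

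Of the list of 11 nucleotidase genes, 8 were measured in ILCs and in Trgv6 γδ T cells of the tdTomato+ library, and 0 of them were past 4-fold against αβ T cells in either direction. Of all measured genes 4.7% were higher and 3.86% lower in ILCs, and 4.89% and 4.03% in Trgv6 γδ T cells. The median log2 ratios of the 8 were 0.30 and 0.17. In macrophages 9 were measured, *Nt5dc2* was higher at 12.2 CPM, and *Nt5c3b* and *Nt5e* were lower at 13.4 and 3.98 CPM. There 15.0% of all measured genes were higher and 8.08% lower. *Nt5dc1*, of the same subfamily as *Nt5dc3*, stood between 25.9 CPM in B cells and 64.6 CPM in NK cells.

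By Pearson's r of log2(CPM + 1) over the classes of both libraries, the genes most like *Stab2* over all gated cells were *Stab1*, *Ctsl*, *Dlc1*, *Plpp3* and *Tcf7l1*, at 0.988 to 0.976 over 15 points. In cells without *Kdr* or *Clec4g* and without endothelium they were *Kifap3*, *Deptor*, *Ypel2*, *She* and Gm6213, at 0.937 to 0.912 over 13 points. For *Nt5dc3* they were *Rbks*, *Cyp4v3*, *Diaph2*, *Igsf8* and *Extl3* over all cells, at 0.935 to 0.850. In the cells without endothelial check genes they were *Rap1gds1*, *Rtl5*, *Nudt13*, *Atp13a1* and *Pla2g4a*, at 0.965 to 0.929. The r between the 2 members was −0.01 over all 15 points and 0.545 over the 13. Points of 1 library share its depth and its endothelial RNA, so these values only describe the likeness.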

How the data were processed

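Unnormalised UMI counts were deposited by the authors as a gene by barcode matrix from Cell Ranger (matrix header version 10.0.0 and build mm10 per the labels, 10x 5′ kit), beside contig tables with UMI counts per receptor chain. Samples were grouped by their titles. A cell was kept with at least 300 genes and at most 10% mitochondrial counts. Gates required, for example, 2 *Trgv6*, 2 *Trdc* and 3 CD3 counts for Trgv6 γδ T cells, 2 *Il7r* and 2 *Gata3* counts with at most 1 CD3 count for ILCs, and 10 panel counts over 4 genes with at most 1 *Ptprc* count for endothelium. Cells with markers of another immune class were left out, but endothelial panel counts did not exclude a cell from an immune gate. No doublet caller was run. Counts were summed per class and given as CPM with exact Poisson intervals, shares with exact binomial (Clopper-Pearson) intervals and ratios with exact conditional binomial intervals, all at 95%. A floor is 3 counts. Over all genes, a gene with 10 CPM in either group counted as changed at 4-fold, with 0.5 counts added. Cells were thinned without replacement to 3000 UMIs.

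The members, gates and lists were chosen with earlier results of these data known. Named genes are the members, the check genes, the lists, the 5 nearest protein-coding genes on each side and the 5 genes most like each member. The restriction to cells with no *Kdr* or *Clec4g* UMI and the splits by check genes such as *Il1rl1*, *Blk* and *Clec4f* were chosen after the data were seen. Results for 1 further marker gene and 1 further promoter motif are not reported here. Scripts were tested on simulated data. Intervals came from scipy 1.17.1 and sums from numpy 2.4.6, run in python 3.11.15. Tables were written with pandas 2.3.3 and figures drawn with matplotlib 3.10.9.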

Additional observations from a re-analysis of the deposited data

How the results depend on the processing

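No paired analysis was possible because each group is 1 library. For the 778 values recomputed under the alternatives, 526 stayed within the interval or 1.5-fold range of the reported value, 249 moved outside it and 3 reversed. *Stab2* over all gated tdTomato+ cells fell from 627 CPM in Trgv6 γδ T cells to 145 without panel UMIs, 99.7 without *Kdr* or *Clec4g* UMIs and 518 after thinning to 3000 UMIs. In ILCs 947 CPM became 505, 620 and 856, and 1323 with gate limits doubled. In tdTomato+ macrophages 433 CPM became 46.1, 174, 395 with doubled limits and 454 without cells above 20000 UMIs. In tdTomato− macrophages 140 CPM became 43.4, 118 after thinning and 163 without deep cells. *Nt5dc3* in tdTomato+ macrophages moved from 27.9 CPM to 12.4, 31.5 and 31.3. In cells with no *Kdr* or *Clec4g* UMI, doubled limits gave *Stab2* at 18.9 CPM in αβ T cells and 853 in ILCs. Leaving out cells above 20000 UMIs gave 700.2 in ILCs, 199.6 and 164 in tdTomato+ and tdTomato− macrophages, and 36.4 CPM of *Nt5dc3* with a library ratio of 0.940. No panel UMI gave 505 in ILCs, 48.6 and 44.0 in macrophages, and 13.6 for *Nt5dc3*. Thinning gave 184 and 116 in macrophages, a library ratio of 1.58 and 37.0 CPM of *Nt5dc3*. The thinned share of tdTomato+ Trgv6 cells, 15.6%, was 34.4% unthinned. Per panel UMI, ILCs moved from 2.73 to 3.05 with doubled limits, 3.08 without deep cells, 2.21 with *Kdr* and 2.34 with *Clec4g*, and Trgv6 cells from 1.41 to 1.15 with *Clec4g*. In the tdTomato− library the ratio of other γδ T cells rose above 1 with *Kdr* (1.14) or endothelial cells of that library (1.41), and that of αβ T cells with *Kdr* (1.14). Genes in excess in whole-class ILCs numbered 4 at 4-fold, 21 at 2-fold, 2 at 50-fold lower and 23 without *Kdr* or *Clec4g* UMIs. The causes were not tested. Precision is limited by 9 tdTomato− ILCs, 32 tdTomato+ Trgv6 cells and 21 tdTomato− endothelial cells, and by 1 library a group. With no panel UMI, the ratio per panel UMI has no value.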

Other observations

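Some cells that met no gate also held *Stab2*. Among kept cells with *Ptprc* and with no *Kdr* or *Clec4g* UMI, 295 of 2278 ungated tdTomato+ cells (12.95%) and 111 of 7980 ungated tdTomato− cells (1.39%) had a *Stab2* UMI. Of the 81 ungated tdTomato+ cells with 3 or more *Stab2* UMIs, 55 had *Il7r*, 45 *Cd3e*, 35 *Gata3* and 31 *C1qa*, and a cell can hold several of these. Of the 33 such tdTomato− cells, 26 had *Cd3e*, 25 *C1qa*, 18 *Il7r* and 13 *Gata3*. These cells entered none of the class values above.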
